A study of Homo sapiens with 18 samples.

Results

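The genes described here are 10 transcripts of the Hippo pathway's output in OVCAR5 cells. They are the coactivators YAP1 and WWTR1 (which encodes TAZ), the DNA-binding partners TEAD1 and TEAD4, the secreted targets CCN1 and CCN2, the target ANKRD1, and the feedback regulators AMOTL1, AMOTL2 and LATS2. They were named by symbol and chosen by their fatty acid differences in these same samples, where the programme had been seen to fall with stearate and rise with oleate, so every fatty acid difference given for them is a description without a test. Each symbol matched 1 Ensembl identifier, 10 of the 60483 in the table, and each of the 10 had a mean of at least 1 TPM (a transcript level scaled for transcript length and to the same total in every library), as did 13789 genes in all.

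RNA was measured in 18 samples of OVCAR5, an established wild-type line labelled as high grade ovarian serous adenocarcinoma, after 24 h of treatment. All 18 were kept in medium with BSA free of fatty acids, and each of 6 conditions had 3 replicates. The conditions were DMSO or CAY10566 alone, stearate+DMSO and stearate+CAY10566, and oleate+DMSO and oleate+CAY10566. Stearate, a saturated fatty acid, and oleate, its monounsaturated counterpart, were given at 50 µM, and CAY10566, an inhibitor of the desaturase SCD1 that turns the former into the latter, at 1 µM. The 6 samples with no added fatty acid, 3 with DMSO and 3 with CAY10566, are called controls, and the question was how each fatty acid altered gene expression with and without the desaturase.

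In the Hippo pathway, the kinases MST1 and MST2, scaffolded by SAV1, activate LATS1 and LATS2, which phosphorylate YAP and TAZ and keep them in the cytoplasm. When the kinases are less active, YAP and TAZ enter the nucleus, bind TEAD factors and raise transcription of targets such as CCN1, CCN2 and ANKRD1. The targets AMOTL2 and LATS2 in turn restrain YAP and TAZ, and in epithelial cancer cells the pathway responds to cell contact, cytoskeletal tension and lipid supply.

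The libraries were read first for cell identity and for samples that stood apart. Each of the 8 epithelial markers averaged above 1 TPM, with EPCAM at 331 TPM, whereas of 5 ovarian serous markers only PAX8 (11.8 TPM) and MSLN (1.02 TPM) did, and WT1 averaged 0.126 TPM and MUC16 0.632 TPM. Summed epithelial markers ranged from 3227 to 3365 TPM in controls, 2626 to 2830 TPM with stearate and 2939 to 3274 TPM with oleate. Of the 7 fibroblast and mesothelial markers 2 averaged at least 1 TPM (CALB2 and COL1A1), with sums of 65.2 to 75.4 TPM in controls, 59.9 to 67.5 TPM with stearate and 67.9 to 75.3 TPM with oleate. Of the 7 immune and endothelial markers only CD68 did, with sums of 84.3 to 112 TPM, 82.5 to 90.9 TPM and 97.9 to 115 TPM in the same order. The part of these marker shifts in the results was not tested. The replicate labelled 3 of CAY10566 alone differed from the other 5 controls in how its levels varied with transcript length. The slope of log2 deviation from the gene mean on log2 transcript length was 0.03 in that library and between -0.05 and -0.03 in the other controls, against -0.03 to 0.03 with stearate and 0.00 to 0.05 with oleate. Counting strand was not given in the sources used here, but no gene overlapping one of the 10 averaged more than 1.39 TPM.

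The 10 genes spanned a wide range of levels. CCN1 was the most abundant at a mean of 446 TPM (363 to 506 over the 18 samples), which placed it at percentile 98.1 of the genes tested. CCN2 followed at 110 TPM and ANKRD1 at 67.3 TPM, whose highest sample reached the range of CCN2. WWTR1 (59.7 TPM), AMOTL2 (59.0 TPM) and YAP1 (53.1 TPM) overlapped one another in their ranges over samples, as did TEAD1 (35.0 TPM) and TEAD4 (29.6 TPM), which averaged less. AMOTL1 at 8.20 TPM and LATS2 at 4.44 TPM were the lowest of the 10. The plot of levels by condition shows that ANKRD1 spanned the widest range in proportion, with its highest sample 2.99-fold above its lowest, and CCN2 the narrowest at 1.29-fold.

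**Figure D1:**
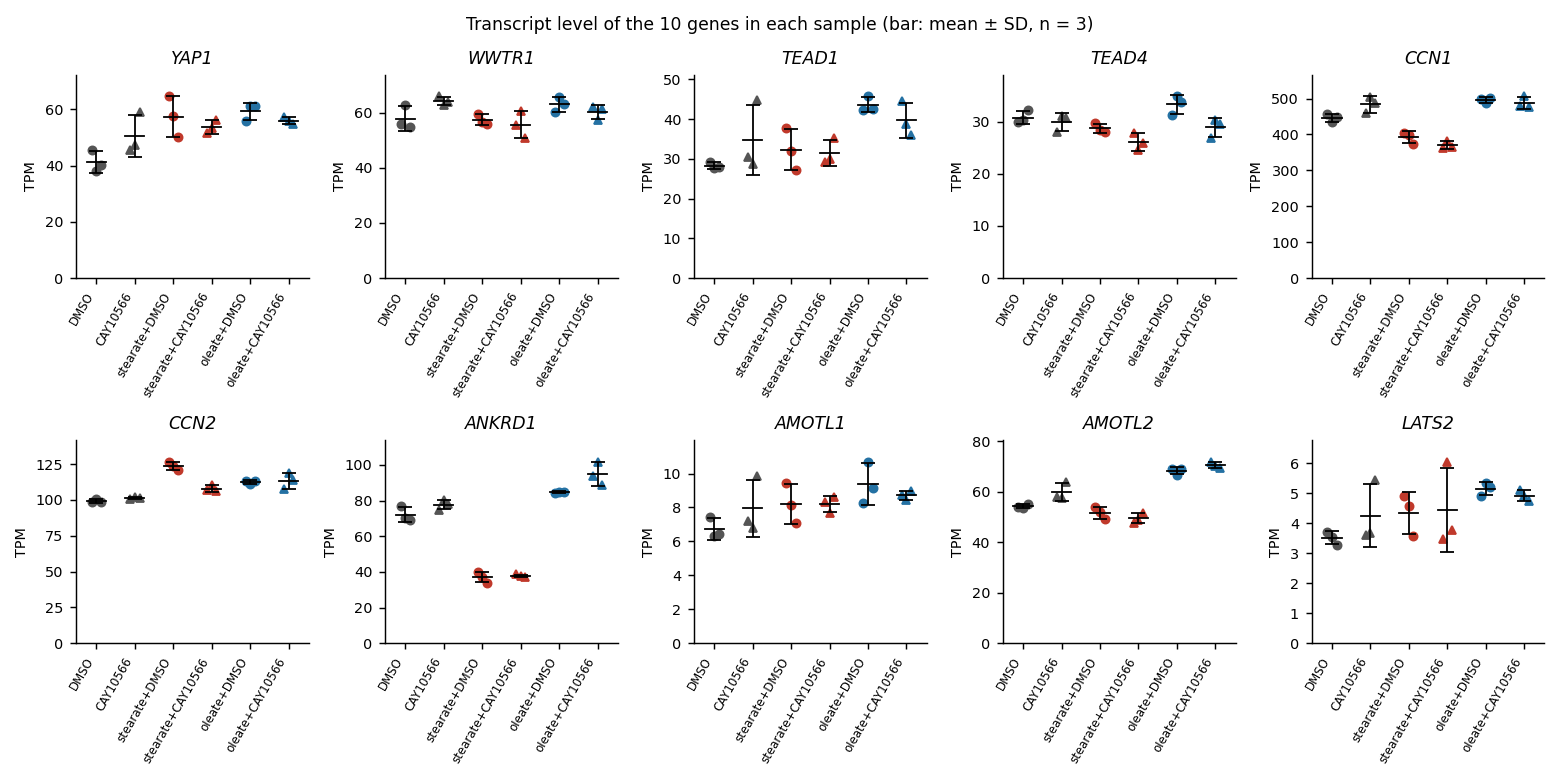
Transcript level in TPM (y axis, from 0) of the 10 genes in each of the 6 conditions (x axis). Each point is 1 sample (circles DMSO, triangles CAY10566; grey no fatty acid, red stearate, blue oleate), and black bars give the mean ± SD of 3 replicates. All 6 stearate samples of ANKRD1 sit between 34.0 and 39.8 TPM, below all other samples, while CCN2 is highest in stearate+DMSO at 121 to 127 TPM.

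Among the direct targets, ANKRD1 had the largest fatty acid difference and CCN2 went against the pattern for which the genes were chosen. ANKRD1 (ENSG00000148677, GRCh38 chr10:90912096-90921087, minus strand) encodes a nuclear ankyrin repeat protein widely used as a YAP reporter. It measured 76.8, 70.3 and 69.0 TPM with DMSO, 74.9, 80.2 and 78.1 TPM with CAY10566, 39.8, 37.2 and 34.0 TPM with stearate+DMSO and 38.6, 37.7 and 37.0 TPM with stearate+CAY10566. With oleate it measured 84.2, 84.8 and 85.0 TPM under DMSO and 93.8, 102 and 88.9 TPM under CAY10566. The 3 fatty acid groups of 6 did not overlap. On the log2(TPM + 1) scale ANKRD1 differed from controls by -0.98 ± 0.05 (SE, n = 6 a group) with stearate, 1.98-fold lower, and by 0.26 ± 0.05 with oleate, or 0.16 with size factors. Stearate minus oleate was -1.24 ± 0.05. In bulk RNA, a lower level in every cell and a lower share of cells with the transcript cannot be told apart.

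CCN1 (ENSG00000142871, chr1:85580761-85584589, plus strand), also named CYR61, encodes a secreted matricellular protein that binds integrins. It measured 434 to 504 TPM in controls (median 458), 363 to 405 TPM with stearate (median 379) and 477 to 506 TPM with oleate (median 493). All 6 stearate samples were below all 12 others, whereas the oleate samples overlapped the controls. The log2 difference from controls was -0.28 ± 0.04 with stearate, -0.18 between the DMSO samples and -0.38 between the CAY10566 samples. With oleate it was 0.08 ± 0.04 (0.15 and 0.01 in the same order), turning to -0.02 when TPM were rescaled by median-of-ratios size factors.

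CCN2 (ENSG00000118523, chr6:131948176-131951372, minus strand), also named CTGF, encodes a matricellular relative of CCN1. It measured 98.8, 101 and 98.6 TPM with DMSO, 101, 102 and 101 TPM with CAY10566, 127, 124 and 121 TPM with stearate+DMSO and 107, 111 and 106 TPM with stearate+CAY10566. With oleate it measured 113, 111 and 114 TPM under DMSO and 107, 119 and 114 TPM under CAY10566. All 12 samples with a fatty acid were above all 6 controls, by 0.20 ± 0.04 (log2) with stearate and 0.17 ± 0.04 with oleate (0.07 with size factors), and the stearate and oleate samples overlapped. CCN2 was the only member of the 10 with a higher mean under stearate than under oleate (0.03 ± 0.04), at 0.14 between the DMSO samples but -0.07 between the CAY10566 samples.

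The promoter sequences of both targets are printed because ANKRD1 and CCN2, which lay on opposite sides of the controls with stearate, both carry the TEAD recognition letters GGAATG close to their start. The windows are RefSeq sequence of GRCh38.p14 from 250 bases before to 50 bases after the transcription start, written 5′ to 3′ on the gene's strand with GGAATG, or its reverse complement CATTCC, in capitals. The CCN2 window is chr6:131951323-131951622, the ANKRD1 window is chr10:90921038-90921337 and the AMOTL2 window that holds the motif is chr3:134374398-134374697, all on the minus strand.
CCN2: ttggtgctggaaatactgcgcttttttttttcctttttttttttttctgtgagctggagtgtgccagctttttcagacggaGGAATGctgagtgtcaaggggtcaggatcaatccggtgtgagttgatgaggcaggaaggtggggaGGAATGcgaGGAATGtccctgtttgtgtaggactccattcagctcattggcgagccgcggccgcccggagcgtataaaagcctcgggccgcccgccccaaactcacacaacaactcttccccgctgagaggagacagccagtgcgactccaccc
ANKRD1: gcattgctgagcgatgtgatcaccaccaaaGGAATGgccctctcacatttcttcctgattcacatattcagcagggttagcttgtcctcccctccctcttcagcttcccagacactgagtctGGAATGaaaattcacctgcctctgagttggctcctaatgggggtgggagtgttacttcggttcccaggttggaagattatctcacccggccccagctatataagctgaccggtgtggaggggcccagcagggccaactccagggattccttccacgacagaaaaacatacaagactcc
AMOTL2: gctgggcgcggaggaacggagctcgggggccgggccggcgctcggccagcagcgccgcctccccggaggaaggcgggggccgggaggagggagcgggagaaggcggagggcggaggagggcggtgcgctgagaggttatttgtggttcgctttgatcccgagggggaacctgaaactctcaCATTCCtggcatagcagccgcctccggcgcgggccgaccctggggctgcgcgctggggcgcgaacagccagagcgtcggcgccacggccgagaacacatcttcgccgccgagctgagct

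Counting the start as position 1 and the base before it as -1, CCN2 held GGAATG at 3 places, with first letters at -169, -104 and -95. ANKRD1 held it at -220 and -128, with an AP-1 match (TGANTCA) between them at -195. AMOTL2 held it on the other strand at -69 in 1 of its 2 windows, YAP1 held it at -162 and LATS2 at 10, after the start. RefSeq windows were at hand for 7 of the 10 genes (YAP1, WWTR1, CCN2, ANKRD1, AMOTL1, AMOTL2 and LATS2), with 9 windows in all. Of the 9 windows 5 held GGAATG or CATTCC, compared with 14% of all 35116 promoter windows of this length. The list was made of YAP and TEAD genes with known targets, so nothing is read from that share. TGANTCA, searched on both strands, was in 7.71% of all windows and the CArG box bound by SRF in 1.29%, and no window of the 10 genes held a CArG box. These matches are descriptions of letters and not of binding.

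The coactivators YAP1 and WWTR1 differed from each other in their stearate values. YAP1 (ENSG00000137693, chr11:102110447-102233424, plus strand) measured 45.6, 38.1 and 40.4 TPM with DMSO, 45.4, 47.4 and 59.2 TPM with CAY10566, 64.6, 57.5 and 50.1 TPM with stearate+DMSO and 51.5, 53.5 and 56.2 TPM with stearate+CAY10566. With oleate it measured 55.8, 61.2 and 61.1 TPM under DMSO and 57.2, 55.9 and 54.8 TPM under CAY10566. The fatty acid samples were above 5 of the 6 controls and overlapped the sixth, replicate 3 of CAY10566. YAP1 was 0.28 ± 0.08 (log2) higher with stearate and 0.33 ± 0.08 higher with oleate, and 0.35 and 0.41 without that replicate.

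WWTR1 (ENSG00000018408, chr3:149517235-149736714, minus strand) had a median of 62.8 TPM in controls (54.6 to 65.9), 56.3 TPM with stearate (50.8 to 60.5) and 61.5 TPM with oleate (57.2 to 65.6), and the groups overlapped. Its log2 difference from controls was -0.11 ± 0.05 with stearate and 0.01 ± 0.05 with oleate, the latter turning to -0.08 with size factors and -0.04 once a trend with transcript length and GC content was removed. The stearate difference of WWTR1 was -0.01 between the DMSO samples and -0.21 between the CAY10566 samples, and that with oleate was 0.12 and -0.09. Its paralog YAP1 had its larger stearate difference between the DMSO samples (0.46, compared with 0.09 between the CAY10566 samples), and with oleate it differed by 0.51 and 0.15. Without replicate 3 of CAY10566 the YAP1 differences between the CAY10566 samples were 0.21 with stearate and 0.26 with oleate.

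TEAD1 (ENSG00000187079, chr11:12674421-12944737, plus strand), a DNA-binding partner of YAP and TAZ, separated the fatty acids more than its relative TEAD4 did. It measured 29.3, 27.6 and 27.9 TPM with DMSO, 30.6, 28.7 and 44.8 TPM with CAY10566, 37.7, 31.9 and 27.3 TPM with stearate+DMSO and 29.2, 30.1 and 35.3 TPM with stearate+CAY10566. With oleate it measured 42.4, 45.7 and 42.6 TPM under DMSO and 44.5, 38.7 and 36.0 TPM under CAY10566. The oleate samples lay above 5 controls and overlapped only replicate 3 of CAY10566, and they overlapped the stearate samples. TEAD1 was 0.41 ± 0.10 (log2) higher with oleate than in controls, and 0.51 without that replicate, 0.60 between the DMSO samples and 0.21 between the CAY10566 samples (0.40 without that replicate). With stearate it differed by 0.03 ± 0.10, which was 0.13 without that replicate, 0.17 between the DMSO samples and -0.11 between the CAY10566 samples (0.08 without that replicate), and turned to -0.03 with size factors and -0.04 with the length and GC trend removed.

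TEAD4 (ENSG00000197905, chr12:2959330-3040676, plus strand) had medians of 30.5 TPM in controls, 27.9 TPM with stearate and 30.8 TPM with oleate, with overlapping groups. Its log2 difference was -0.14 ± 0.06 with stearate and 0.03 ± 0.06 with oleate, and the latter was -0.07 with size factors, -0.05 between the CAY10566 samples, 0.11 between the DMSO samples and 0.13 with the length and GC trend removed. Stearate minus oleate was -0.38 ± 0.10 for TEAD1 and -0.17 ± 0.06 for TEAD4.

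Of the feedback regulators, AMOTL2 shared the signs of the direct target CCN1 over all samples, lower with stearate and higher with oleate. The groups that lay apart differed, as CCN1 was separate from controls only with stearate and AMOTL2 only with oleate. AMOTL2 (ENSG00000114019, chr3:134355347-134375479, minus strand) encodes an angiomotin that binds YAP and holds it outside the nucleus. It measured 53.7 to 63.8 TPM in controls, 47.8 to 53.7 TPM with stearate and 66.7 to 71.9 TPM with oleate. The oleate samples were above all others, while the highest stearate sample and the lowest control overlapped. The log2 difference from controls was -0.17 ± 0.04 with stearate, -0.07 between the DMSO samples and -0.27 between the CAY10566 samples. With oleate it was 0.28 ± 0.04, or 0.18 with size factors.

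AMOTL1 (ENSG00000166025, chr11:94706431-94876748, plus strand), the paralog of AMOTL2, was instead higher with both fatty acids, with medians of 6.98 TPM in controls, 8.22 TPM with stearate and 8.85 TPM with oleate. LATS2 (ENSG00000150457, chr13:20973036-21061586, minus strand), a kinase of YAP and TAZ that is also their target, had medians of 3.65, 4.18 and 5.03 TPM in the same order. Both overlapped between groups, and in both the highest control was replicate 3 of CAY10566, at 9.86 TPM for AMOTL1 and 5.46 TPM for LATS2. Without it, the log2 differences with oleate were 0.36 for AMOTL1 and 0.40 for LATS2, compared with 0.28 ± 0.09 and 0.32 ± 0.11 with it, and those with stearate were 0.23 and 0.22, compared with 0.15 ± 0.09 and 0.14 ± 0.11.

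Of the 10 genes, 5 (WWTR1, TEAD4, CCN1, ANKRD1 and AMOTL2) had a lower mean with stearate and a higher mean with oleate, and 5 (YAP1, TEAD1, CCN2, AMOTL1 and LATS2) had a higher mean with both. With oleate 10 of 10 were higher, although WWTR1, TEAD4 and CCN1 turned lower with size factors, WWTR1 also with the length and GC trend removed, and WWTR1 (-0.09) and TEAD4 (-0.05) between the CAY10566 samples. Means were lower with stearate than with oleate in 9 of 10, the exception being CCN2 as given above. The median log2 difference of the 10 was -0.04 with stearate, 0.27 with oleate and -0.18 for stearate against oleate, compared with 0.06, 0.09 and -0.03 over all genes tested. Without replicate 3 of CAY10566 the medians of the 10 were 0.02, 0.29 and -0.18, so the stearate median changed sign on leaving out that library. Medians over all genes are not given for that fit. With stearate, 1 gene lay wholly above the controls (background over all genes 4.7%) and 2 lay wholly below (3.09%). With oleate 3 lay wholly above (3.49%) and 0 wholly below (0.573%). Against oleate, 3 lay wholly lower with stearate (7.28%) and 0 wholly higher (2.94%). Since these contrasts chose the genes, nothing is read from those counts.

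Apart from CCN2, the genes that were higher with both fatty acids were the 4 with the longest transcripts. The longest annotated transcript had 9417 bases for TEAD1, 8980 for AMOTL1, 5546 for LATS2 and 5401 for YAP1. Close below them were WWTR1 with 5037 and AMOTL2 with 4868 bases, both with a lower mean with stearate. CCN1 had 3080 bases, CCN2 2338, ANKRD1 1790 and TEAD4 1710. YAP1 and TEAD1 were low in the libraries with a negative length slope and high in those with a positive one, as the plot of levels against library slope shows, while ANKRD1 measured 34.0 to 39.8 TPM in the stearate libraries, whose slopes ran from -0.03 to 0.03. Once each library's length and GC trend was removed, an alternative chosen after seeing the data, the oleate difference was 0.28 for TEAD1, 0.26 for YAP1, 0.26 for LATS2 and 0.17 for AMOTL1 (0.28 before), and the stearate difference was 0.22 for YAP1, -0.99 for ANKRD1, -0.29 for CCN1 and -0.05 for TEAD4 (-0.14 before). The part of the length trend in the remaining difference of any gene was not tested.

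**Figure D2:**
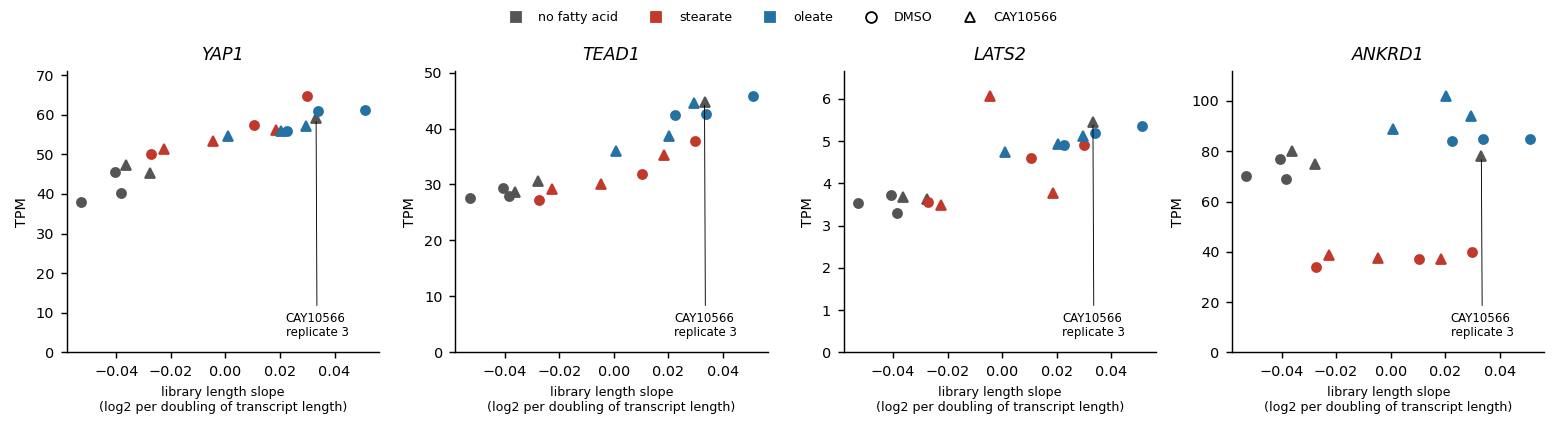
Level in TPM (y axis, from 0) of YAP1, TEAD1, LATS2 and ANKRD1 in each of the 18 samples against the library's slope of log2 deviation on log2 transcript length (x axis). Grey, red and blue mark no fatty acid, stearate and oleate, and circles and triangles mark DMSO and CAY10566. The marked control, replicate 3 of CAY10566, has a slope of 0.03 and a TEAD1 level of 44.8 TPM, whereas the other 5 controls lie below -0.02 and between 27.6 and 30.6 TPM.

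The effect of the desaturase inhibitor was not used to choose the genes and was tested with limma over all 13789 genes. CAY10566 changed 0 of the 10 genes at an FDR under 0.05 with levels over 25% apart, whether alone, with stearate, with oleate or over all samples. The share of all genes called was 0% alone, 0.00725% with stearate, 0% with oleate and 0% over all samples. At an unadjusted p under 0.05, 4 of the 10 were counted without fatty acid (all genes 10.1%), 1 with stearate (5.52%), 2 with oleate (4.72%) and 2 over all samples (5.42%). Without replicate 3 of CAY10566 the count without fatty acid was 1 in place of 4, and the median difference of the 10 there was 0.08 in place of 0.14. Over all samples the differences ran from -0.12 for TEAD4 to 0.10 for ANKRD1, with intervals of 2 SE from -0.20 to -0.05 and from 0.03 to 0.17.

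The lowest p among these tests belonged to CCN2 with stearate. The 3 stearate+CAY10566 samples (106 to 111 TPM) were all below the 3 stearate+DMSO samples (121 to 127 TPM), a log2 difference of -0.20 ± 0.04 or 1.15-fold (limma adjusted p = 0.165). Over 27 fits in all, including those that left out a sample or changed a setting, its adjusted p ran from 0.0476 to 0.769, and it passed the FDR threshold only without replicate 1 of oleate+CAY10566, still under the fold threshold. Without fatty acid CCN2 differed by 0.03 ± 0.04 (adjusted p = 0.807) and with oleate by 0.01 ± 0.04 (adjusted p = 0.995).

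For YAP1, CAY10566 alone gave a log2 difference of 0.28 ± 0.10 from DMSO (limma adjusted p = 0.435), which was 0.17 without replicate 3 of CAY10566. WWTR1, AMOTL2 and CCN1 differed by 0.15, 0.14 and 0.12 in the same contrast (adjusted p = 0.467, 0.435 and 0.435), and AMOTL2 by 0.09 without that replicate. TEAD1, AMOTL1 and LATS2 differed by 0.26, 0.20 and 0.20 (adjusted p = 0.525, 0.575 and 0.651), and by 0.07, 0.05 and 0.04 without it. ANKRD1 with stearate differed by 0.03 ± 0.06 between inhibitor and DMSO (adjusted p = 0.968, interval of 2 SE from -0.09 to 0.15). Differences from -0.09 to 0.15 in ANKRD1 were therefore compatible with these stearate samples at this spread.

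Whether the fatty acid difference itself depended on the inhibitor was tested as an interaction. The stearate difference was lower with CAY10566 than with DMSO in 10 of 10 genes, by a median of -0.20 on the log2 scale, yet 0 of 10 passed in limma (5 at an unadjusted p under 0.05, all genes 9.36%, with 0.00725% of all genes called). The oleate difference was lower in 9 of 10, by a median of -0.19, and again 0 of 10 passed (3 at an unadjusted p under 0.05, all genes 10.3%, with 0% called). Without replicate 3 of CAY10566, which enters every one of these interactions, the medians were -0.12 for stearate and -0.14 for oleate, with 3 and 2 genes at an unadjusted p under 0.05 and 0 called. Of 33 other Hippo genes, taken up below, 29 were also lower in each interaction. The share of lower genes over all genes is not given here, so nothing is read from these signs. CCN2 had the lowest p for stearate, with a difference of 0.32 ± 0.04 under DMSO and 0.09 ± 0.04 under CAY10566 (interaction -0.23 ± 0.05, adjusted p = 0.354). For YAP1 the stearate difference was 0.46 ± 0.10 under DMSO and 0.09 ± 0.10 under CAY10566 (interaction adjusted p = 0.512), the latter 0.21 without replicate 3 of CAY10566, and for ANKRD1 it was -0.94 ± 0.06 and -1.02 ± 0.06 (adjusted p = 0.778).

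**Figure D3:**
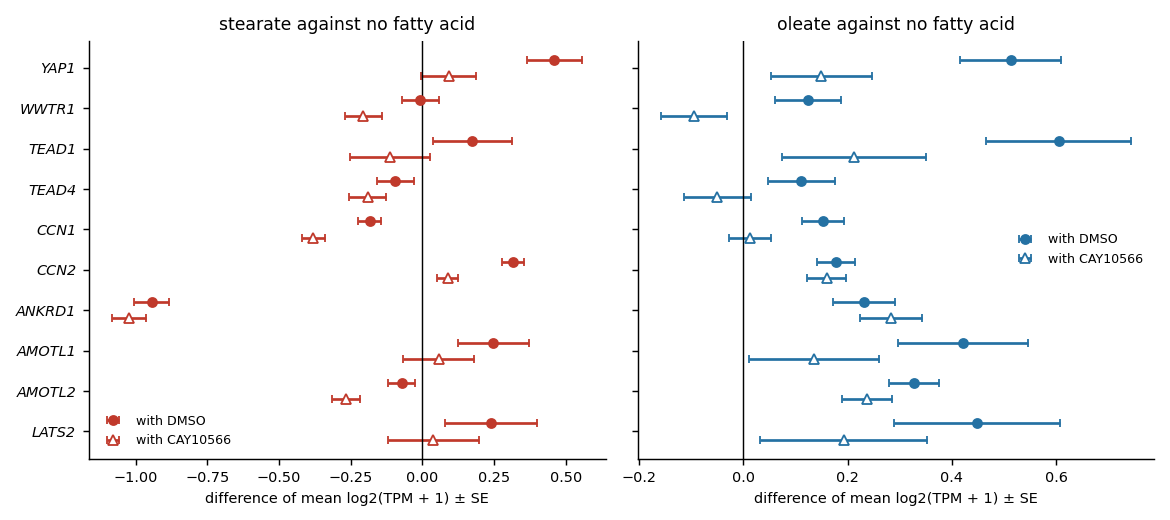
Difference of mean log2(TPM + 1) ± SE (x axes, on different scales) of each gene from the samples with no fatty acid, for stearate (left) and oleate (right), 3 samples against 3. Filled circles are samples with DMSO and open triangles samples with CAY10566. ANKRD1 lies at -0.94 and -1.02 with stearate whatever the inhibitor, while YAP1 lies at 0.46 with DMSO and 0.09 with CAY10566, or 0.21 without replicate 3 of CAY10566.

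Of the other genes of the pathway, 33 of 39 listed had a mean of at least 1 TPM and were tested in the fit over all genes. They were listed with earlier results of these samples known, so their counts are not independent evidence. With stearate 4 of the 33 fell (background 1.89% of all genes down), or 3 of 32 without F3, whose fall was already known, and 0 rose (background 3.46%, limma, 7 at an unadjusted p under 0.05). With oleate 8 rose (background 6.46%) and 0 fell (background 0.435%, limma, 0 at an unadjusted p under 0.05). Between the fatty acids 11 were lower with stearate (background 4.78%) and 0 higher (background 1.6%, limma, 0 at an unadjusted p under 0.05). The 11 were FRMD6, NF2, WWC1, SAV1, AJUBA, WWC2, F3, TGFB2, CRIM1, MYOF and AXL, of which WWC1, SAV1, AJUBA, MYOF and AXL are named after their values were seen. Of these 11 genes 9 were called in every fit run, WWC2 was called in 20 of 28 and AJUBA in 27 of 28.

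The Hippo kinases and their upstream regulators included 2 that fell with stearate and 4 that rose with oleate of 16 tested, compared with 1.89% and 6.46% of all genes, with median log2 differences of 0.08 and 0.26. Without replicate 3 of CAY10566 the list had 1 gene down and 1 up with stearate and 7 up with oleate. The oleate count was 9 with the DMSO samples only, 0 with the CAY10566 samples only and 2 with size factors or with the length and GC trend removed. The count down with stearate was 4 with size factors and 1 with the DMSO samples only, in place of 2. FRMD6, a FERM-domain activator of the pathway, measured 35.9 to 49.1 TPM in controls (median 40.4), 27.6 to 33.8 TPM with stearate (median 30.4) and 50.0 to 57.6 TPM with oleate (median 56.0). Its 3 groups did not overlap, and it fell by 0.41 ± 0.06 on the log2 scale with stearate (limma adjusted p = 0.000228) and rose by 0.42 ± 0.06 with oleate (adjusted p = 0.000843).

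NF2, which encodes the upstream tumor suppressor merlin, measured 19.0 to 25.6 TPM in controls (median 20.0), 14.4 to 18.2 TPM with stearate (median 15.6) and 24.2 to 27.1 TPM with oleate (median 25.6). It fell with stearate by 0.36 ± 0.07 (adjusted p = 0.00137), which came to -0.30 and missed the fold threshold without replicate 3 of CAY10566 and with the DMSO samples only, and missed the FDR with the CAY10566 samples only (-0.42, adjusted p = 0.116). With oleate NF2 differed by 0.30 (adjusted p = 0.00546), under the fold threshold, and it passed without replicate 3 of CAY10566 (0.36, adjusted p = 0.000162) and with the DMSO samples only (0.35, adjusted p = 0.0162). WWC2, a relative of the scaffold KIBRA, rose with oleate by 0.46 ± 0.10 (adjusted p = 0.0047) from a median of 14.96 to 21.3 TPM, and differed by 0.11 ± 0.10 with stearate (adjusted p = 0.488). LATS1, the paralog of LATS2, rose with oleate by 0.40 ± 0.11 (adjusted p = 0.0166) from a median of 8.24 to 12.1 TPM. It missed the call with size factors (0.31), with the length and GC trend removed (0.29) and with the CAY10566 samples only (0.13). With stearate LATS1 differed by 0.24 (adjusted p = 0.144), but it rose by 0.35 without replicate 3 of CAY10566 (adjusted p = 0.00454) and by 0.47 with the DMSO samples only (adjusted p = 0.02). Stearate minus oleate was -0.39 ± 0.04 for the scaffold SAV1 (adjusted p = 3.34e-06) and -0.55 ± 0.05 for the KIBRA gene WWC1 (adjusted p = 2.62e-07).

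Further YAP and TAZ targets included 2 that fell with stearate and 4 that rose with oleate of 14 tested, compared with 1.89% and 6.46% of all genes, with median log2 differences of -0.11 and 0.22. Without F3, 1 of 13 fell with stearate. With the DMSO samples only 3 of them rose with stearate, and the oleate count was 0 with the CAY10566 samples only and 2 with size factors or with the length and GC trend removed. F3, which encodes tissue factor, the initiator of coagulation, had been known to fall before it was listed. It measured 340 to 388 TPM in controls, 111 to 136 TPM with stearate and 386 to 457 TPM with oleate. Its stearate difference, given as a description, was -1.54 ± 0.05, or 2.91-fold lower. TGFB2, a growth factor of the TGF-beta family, fell with stearate by 0.55 ± 0.09 (adjusted p = 0.000433), from 4.24 to 6.17 TPM in controls to 2.90 to 3.42 TPM, and missed the FDR with the CAY10566 samples only (-0.53, adjusted p = 0.0817).

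CRIM1, a membrane protein that binds bone morphogenetic proteins, rose with oleate by 0.48 ± 0.08 (adjusted p = 0.00163), from a median of 63.1 to 92.8 TPM. Its stearate minus oleate difference was -0.78 ± 0.08 (adjusted p = 1.21e-06). With stearate CRIM1 differed by -0.29 ± 0.08 (adjusted p = 0.0157), under the fold threshold, and it was called in 4 of 28 fits. Among these were size factors (-0.35, adjusted p = 0.000937) and the length and GC trend removed (-0.33, adjusted p = 0.00186). PTPN14, a phosphatase that holds YAP back and is also its target, rose with oleate by 0.64 ± 0.16 (adjusted p = 0.00885) from a median of 9.94 to 18.0 TPM. With stearate PTPN14 differed by 0.23 ± 0.16 (adjusted p = 0.323), but by 0.39 without replicate 3 of CAY10566 (adjusted p = 0.025) and by 0.52 with the DMSO samples only (adjusted p = 0.0498), both past the threshold. For AXL, a receptor tyrosine kinase, stearate minus oleate was -0.49 ± 0.05 (adjusted p = 2.86e-07), and for MYOF, a membrane repair protein, it was -0.56 ± 0.07 (adjusted p = 5.96e-06).

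The number of oleate rises depended on which samples entered, among these genes as over all genes. Of the 33 genes 14 rose with the DMSO samples only and 0 with the CAY10566 samples only, and 4 rose with size factors or with the length and GC trend removed, in place of 8. Over all genes the counts were 1883, 0, 315 and 510 in the same order, in place of 891. LATS1, NF2, PTPN14 and CRIM1 were all highest among controls in replicate 3 of CAY10566, at 13.8, 25.6, 19.1 and 86.0 TPM. In the contrast of stearate with oleate, which has no controls, 10 of the 11 genes kept their call with the DMSO samples only, with size factors and with the length and GC trend removed, and 9 with the CAY10566 samples only. WWC2 lost the call in all 4 of these settings while its difference stayed between -0.41 and -0.30, compared with -0.35 ± 0.10 over all samples. AJUBA lost it with the CAY10566 samples only, at -0.29 compared with -0.37 ± 0.06.

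**Figure D4:**
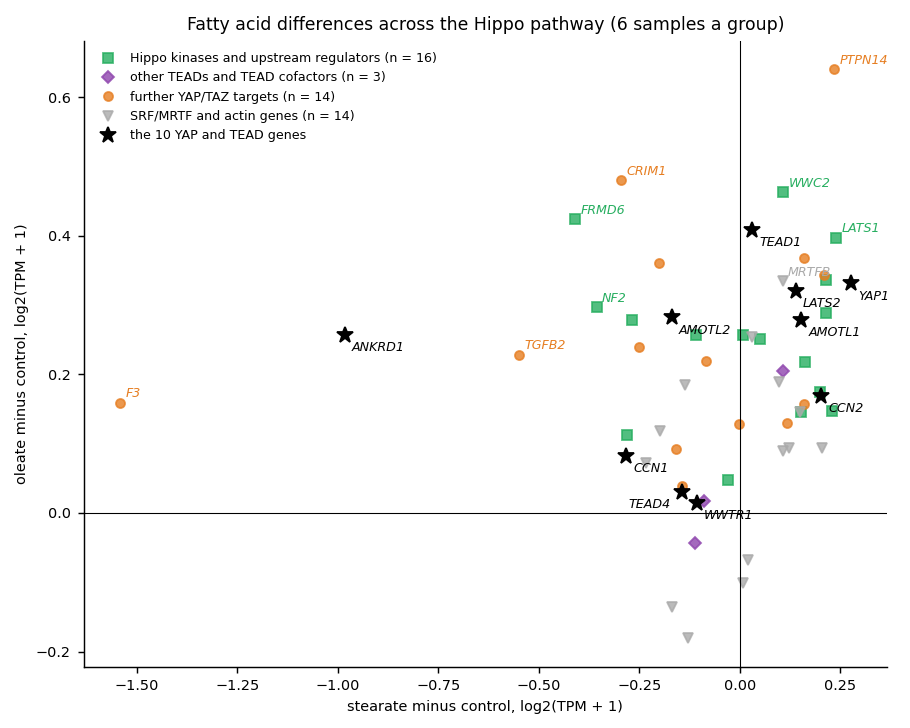
Difference of mean log2(TPM + 1) from controls with stearate (x axis) and oleate (y axis) for the 10 genes (stars) and the tested genes of 4 other lists, 6 samples a group. Both differences share the control samples, so the shape of the cloud is not a result. F3, ANKRD1, TGFB2, FRMD6 and NF2 lie to the left with positive oleate differences, whereas YAP1, LATS2 and AMOTL1 lie to the right of 0 on both axes.

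The remaining TEAD genes and cofactors and the parallel SRF pathway were read from the same fit. TEAD2, TEAD3 and VGLL4, the 3 tested of 5, gave 0 calls in any fatty acid contrast with limma (1 at an unadjusted p under 0.05 with stearate, 1 with oleate and 0 between the fatty acids), although 1 rose with oleate in the DMSO samples only. SRF with its MRTF coactivators shares cytoskeletal inputs with YAP. Of 14 SRF, MRTF and actin genes 0 were called with stearate (4 at an unadjusted p under 0.05). Those 4 were lower and passed the FDR, short of the fold threshold. With oleate 3 were higher and 2 lower at that FDR, and 1 was called (7.14%, close to the 6.46% of all genes that rose). That gene was MRTFB, which rose by 0.33 ± 0.11 (limma adjusted p = 0.0391) and missed the threshold in 9 of the 18 fits that left out a sample. Between the fatty acids 0 of the 14 were called (5 at an unadjusted p under 0.05), but 1 or 2 were lower with stearate in 8 of those 18 fits, and likewise with a pseudocount of 0.1, with the length and GC trend removed, and with the DMSO or the CAY10566 samples only. In the contrast between the fatty acids 5 of the 14 passed the FDR but not the fold threshold, all named after their values were seen. Lower with stearate were the tropomyosin TPM2 (-0.32 ± 0.08, adjusted p = 0.00629), the LIM-domain genes FHL1 (-0.32 ± 0.05, adjusted p = 6.03e-05) and FHL2 (-0.30 ± 0.04, adjusted p = 3.2e-05), and vinculin VCL (-0.22 ± 0.06, adjusted p = 0.0142), and higher was the actin ACTB (0.11 ± 0.04, adjusted p = 0.0431). CAY10566 changed 0 of the 33 Hippo genes in limma, alone, with stearate, with oleate or over all samples (8, 2, 3 and 3 at an unadjusted p under 0.05, compared with 10.1%, 5.52%, 4.72% and 5.42% of all genes). The 8 without fatty acid became 3 without replicate 3 of CAY10566.

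The genes whose 6 condition means, centred on their own mean, lay nearest to those of a member were listed for CCN1, CCN2 and YAP1 among 10133 genes averaging at least 5 TPM. Nearness was the root mean square difference in log2(TPM + 1) over the 6 conditions. For CCN1 the nearest were FMNL1 (0.0191) and SAV1 (0.0196), then KIFC3, ACTL8 and WNT7B. For CCN2 they were ZNF707 (0.0151), IRF1 (0.0199), MMGT1, APOOL and the gene with identifier ENSG00000159239, and for YAP1 they included MED1 (0.0131), ZKSCAN8 (0.0145), PHLDA1-AS1 and RBM15. Among the 9 of the 10 genes above that level, LATS2 being below it, the nearest pairs were AMOTL1 with YAP1 (0.0624), TEAD4 with WWTR1 (0.0749) and AMOTL2 with CCN1 (0.0848). ANKRD1 was farthest from the other 8, between 0.380 (AMOTL2) and 0.587 (CCN2).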

How the data were processed

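The authors sequenced 18 OVCAR5 libraries (poly(A) RNA, stranded kit, paired-end), trimmed reads with Trim Galore, aligned them with STAR 2.7.1a to GRCh38 and quantified genes with RSEM. The deposited table holds TPM, which keeps no read depth, so precision is given by replicate spread alone. The 18 libraries differed from one another, and replicates of a condition correlated at 0.982 to 0.987 on the log scale. The study's methods give each treatment as done in triplicate, without saying whether on separate days or passages, so p-values measure the spread among those treatments.

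A line naming no gene was left out. Symbols matched 56321 of 60483 identifiers. Tests used limma 3.58.1 (R 4.3.3) with a trend on log2(TPM + 1), which understates changes of low genes, for genes with mean TPM of at least 1. Genes were called where the FDR (Benjamini-Hochberg) was below 0.05 and levels differed by over 25%. Fatty acid contrasts used 3 groups of 6 with inhibitor and DMSO pooled, and inhibitor contrasts used 6 conditions of 3, or 9 against 9 with fatty acid as covariate. The fit was checked on simulated data. The members and lists were chosen with earlier results of these data known. Up to 4 called genes with the largest fatty acid change were named per pathway list, with the 5 nearest genes by condition means for CCN1, CCN2 and YAP1, of which 1 is not reported here. Coordinates and transcript lengths are from GENCODE, a later annotation on the same build.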

Additional observations from a re-analysis of the deposited data

Results flagged for a closer look

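In groups of 6 samples, a value was singled out when its gap to the nearest other sample exceeded Dixon's critical share of the group's range. Chance gives about 1 such group in 20 where groups are independent and each is of 1 kind, and here 10 of 57 were found. The 57 groups share the same libraries and each pools DMSO with CAY10566, so no excess is read from that count. Of the 10 groups, 7 were the same library, replicate 3 of CAY10566 among the controls. It measured 44.78 TPM for TEAD1 (other controls 27.64 to 30.57), 9.86 for AMOTL1 (6.3 to 7.45) and 5.46 for LATS2 (3.29 to 3.72). In the same library LATS1 measured 13.82 TPM (others 7.47 to 9.46), NF2 25.64 (18.98 to 21.03), PTPN14 19.14 (7.84 to 10.59) and CRIM1 86.02 (58.5 to 66.11). Among oleate samples, AMOTL1 was 10.7 TPM in replicate 2 of oleate+DMSO (others 8.27 to 9.17), WWC2 was 26.37 in replicate 3 of oleate+DMSO (20.17 to 21.47) and FRMD6 was low at 49.96 in replicate 3 of oleate+CAY10566 (54.83 to 57.6).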

How the results depend on the processing

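The count of members called in the inhibitor tests was 0 under every alternative run, and the genes lower with stearate than with oleate among the 33 tested Hippo genes numbered 10 to 12. Over all genes, stearate raised 477 and lowered 261, oleate raised 891 and lowered 60, and 220 were higher and 659 lower with stearate than with oleate. With size factors these became 276 and 369, 315 and 145, and 310 and 503, and of the 33 Hippo genes 7 fell with stearate in place of 4 and 4 rose with oleate in place of 8. With the DMSO samples only, 858 rose with stearate, 1883 rose and 118 fell with oleate, and of the 33 genes 4 rose with stearate and 14 with oleate. With the CAY10566 samples only, 50 rose and 121 fell with stearate, 0 rose and 3 fell with oleate, and 65 were higher and 268 lower with stearate than with oleate, with 0 of the 33 raised by oleate. A mean of at least 5 TPM, which tests fewer genes, left 30 lowered by oleate and 142 higher with stearate than with oleate. Without the length and GC trend oleate raised 510, and 4 of the 33. Where no other cause is named, the cause was not tested.

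Leaving out 1 sample at a time gave 373 to 794 genes raised by stearate, 246 to 277 lowered, 633 to 1465 raised by oleate, 45 to 92 lowered, and 187 to 237 higher and 543 to 733 lower with stearate than with oleate. The values 794, 1465 and 92 are those without replicate 3 of CAY10566. Of the 33 Hippo genes 0 to 2 rose and 3 to 5 fell with stearate, and 7 to 12 rose with oleate, the 2 raised by stearate again being without that replicate. No called value changed sign.

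No clear pairing by replicate number was seen. Over 45 pairs with the same number in different conditions, deviations from the condition means correlated at -0.18 to 0.10 (median 0.01). Over 90 pairs with different numbers they correlated at -0.12 to 0.17 (median -0.01), and 9 of 18 samples were nearest to their own number. With the replicate block 458 genes rose and 262 fell with stearate, 866 rose and 58 fell with oleate, and of the 33 Hippo genes 4 fell with stearate and 8 rose with oleate. MRTFB missed the threshold under the block (adjusted p = 0.0502).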
